A study of Mus musculus with 2 samples.

Results

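Cytokines, alarmins and chemokines that keratinocytes are known to make were followed in 2 populations of reporter-bright mouse skin cells. The 10 genes are Il33, Il1a, Il18, Il1rn, Tslp, Cxcl16, Ccl27a, Ccl20, Cxcl1 and Cxcl14. They were selected on earlier results of this same contrast, so their ratios are given as a description. All array probes named for one of these genes or an older synonym were taken, which gave 13 probes for 10 of the 21389 genes named on the array. Of these genes, 3 (Il1a, Il1rn and Cxcl16) had 2 probes each and the others had 1.

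The GFP-high cell fraction sorted from dorsal skin of Lgr6-EGFP-ires-CreERT2 mice (Lgr6-high cells) was set against the GFP-high fraction of Lgr5-EGFP-ires-CreERT2 mice (Lgr5-high cells). In both lines a cassette with green fluorescent protein and a tamoxifen-dependent Cre sits in the gene of an R-spondin receptor, so GFP marks the cells that use that gene's promoter, and both populations carry such an allele. Each sort pooled 3 mice, whose sex and age were not given in the labels used here, and 150 ng of total RNA was amplified and labelled. On array 1 Lgr6-high RNA carried Cy5 and Lgr5-high RNA carried Cy3; on array 2 the dyes were exchanged.

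Keratinocytes act as sentinels of the skin. IL-33, IL-1 alpha and IL-18 belong to the IL-1 family: IL-1 alpha and IL-33 are alarmins released from damaged cells, IL-18 is matured by caspase-1, and Il1rn encodes the antagonist that blocks the IL-1 receptor. TSLP is an epithelial cytokine that favours type 2 immunity, and chemokines such as CXCL16 and CCL27 draw leukocytes that carry the matching receptor into the skin.

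Both arrays measured each population once, with opposite dyes. No label states that separate RNA pools were hybridised, so the pair counted as 1 replicate and no test of the populations was possible. Values are means ± SD of 2 arrays, and this SD carries the spread between hybridisations and between dye orientations. Whether it holds any spread between animals cannot be told from the labels, so it is not read as such. A gene entered the comparison if a probe was well above background in at least 1 population on both arrays, and it was called by a rule of size, a mean log2 ratio of 1 or more in size, with both arrays at 0.5 or more in that direction. Among 6195 genes compared, the median log2 ratio was -0.05 and the median SD 0.23. Spots well above background made up 15.3% (Cy5) and 33.3% (Cy3) of probe spots for Lgr6-high cells, and 31.6% (Cy3) and 16.2% (Cy5) for Lgr5-high cells. In both populations Cy3 thus detected more spots than Cy5.

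The sequences below are those of the probes on which the member values turn: the single probes of Il33 and Ccl27a, and both probes of Cxcl16 and of Il1rn, whose ratios differ within the gene. They are 60 bases long as deposited; for 3 of them only the first 30 bases are shown. The number after each name is the position in the transcript, counted from its start, at which the probe begins.
Il33 (2295, first 30 bases): tcgtacggctgtaacaggtataattgtttc
Ccl27a (122): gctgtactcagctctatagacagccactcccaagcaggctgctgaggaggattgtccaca
Cxcl16 (813): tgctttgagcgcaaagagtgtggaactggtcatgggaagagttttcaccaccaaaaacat
Cxcl16 (2344, first 30 bases): tgtaaagttctaggttcaaccctcccacta
Il1rn (203): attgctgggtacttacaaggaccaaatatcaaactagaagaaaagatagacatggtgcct
Il1rn (1546, first 30 bases): tttcttgaccattcattttatcacttctaa

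On mouse build mm9 the Il33 probe lies at chr19:30034990-30035049 on the plus strand and the Ccl27a probe at chr4:41716763-41716822 on the minus strand. The Cxcl16 probes lie at chr11:70269521-70272262 and chr11:70267780-70267839, both on the minus strand. The Il1rn probes lie at chr2:24203035-24204055 and chr2:24206125-24206184, both on the plus strand. All are exonic, since they match transcripts, and the Cxcl16 probe at 813 and the Il1rn probe at 203 span more genome than their 60 bases and so cross an intron. Whether a probe lies in a coding or an untranslated part was not annotated in the tables used here.

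Of the 10 members, 6 entered the comparison and 5 of these were called higher in Lgr6-high cells: Il33, Tslp, Cxcl16, Ccl27a and Il1rn. None was called higher in Lgr5-high cells, and 1, Cxcl14, was compared and not called. Over all genes compared, the same rule called 7.22% higher in Lgr6-high cells and 4.79% higher in Lgr5-high cells. The members were selected on this contrast, so nothing is read from that difference in shares. The median log2 ratio of the 6 members compared was 2.62, which describes these values only. Of them, 3 (Il33, Tslp and Il1rn) passed the background filter through Lgr6-high cells alone. Their ratios rest on a background signal in Lgr5-high cells, so "at least" folds are given for them below.

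At background in Lgr5-high cells, with every probe and on both arrays, were 5 members: Il33, Tslp, Il1rn, Il1a and Il18. Il33, Tslp and 1 of the Il1rn probes were well above background in Lgr6-high cells on both arrays, whereas Il1a and Il18 were at background in Lgr6-high cells too. Cxcl16, Ccl27a and Cxcl14 were above background in both populations on both arrays. Ccl20 and Cxcl1 were above background in each population on only 1 of the 2 arrays.

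**Figure D1:**
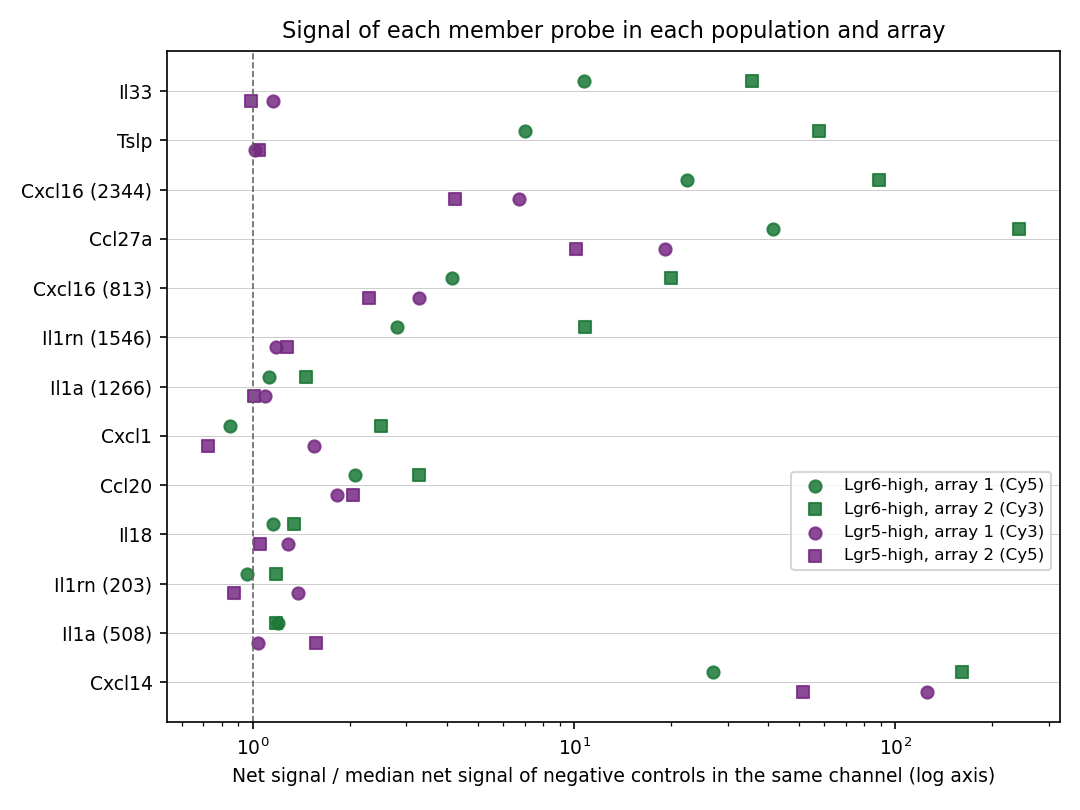
Net signal of each member probe (rows; where a gene has 2 probes the start in the transcript is in brackets) over the median of the negative controls in the same channel, on a log axis, with Lgr6-high cells above Lgr5-high cells in each row. For Il33 and Tslp the Lgr5-high points sit at the negative controls (1.15 and 0.987 times for Il33, 1.01 and 1.04 times for Tslp), while the Lgr6-high points reach 10.7 and 35.8 times for Il33 and 7.02 and 57.7 times for Tslp.

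Net signals below are mean spot signals minus the local background on the scanner's linear scale, given for array 1 and then array 2. Cy3 reads brighter than Cy5, so a population is compared with the other in the same dye. The negative controls had net medians of 22.3 (Cy5) and 40.2 (Cy3) in the Lgr6-high channels, and of 40.6 (Cy3) and 22.1 (Cy5) in the Lgr5-high channels.

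Il33 encodes the alarmin that signals through the receptor ST2, the product of Il1rl1. Its net signal was 239 and 1439 in Lgr6-high cells, against 46.7 and 21.8 in Lgr5-high cells, close to the negative controls of both dyes. Lgr6-high cells were higher in each dye. The log2 ratio, Lgr6-high over Lgr5-high, was 3.24 and 2.52 on the 2 arrays (2.88 ± 0.50). Since Lgr5-high cells had only a bound, the level was at least 6.91-fold higher in Lgr6-high cells under the settings used here. Folds given as "at least", here and below, hold for these settings only. When the normexp background model was fitted on all spots the Il33 log2 ratio was 1.87, and without background subtraction it was 1.89.

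Il1a, the other alarmin of the family, was not measurable above background in either population. Its probe at position 508 of the transcript (chr2:129128725-129130459, minus strand, crossing an intron) had net signals of 26.6 and 47.3 in Lgr6-high cells and 41.9 and 34.8 in Lgr5-high cells. Its probe at position 1266 (chr2:129125994-129126053) had 24.9 and 58.8 in Lgr6-high cells and 44.2 and 22.2 in Lgr5-high cells. At this signal a difference in Il1a was not detectable, which does not show that the transcript was absent.

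Il18 was the best measured of the genes at background, because its single probe (chr9:50387470-50389598, plus strand, crossing an intron) is spotted 10 times on each array. Net signals averaged 25.8 ± 4.13 and 53.8 ± 7.10 in Lgr6-high cells, and 52.1 ± 5.31 and 23.3 ± 5.47 in Lgr5-high cells (SD over 10 spots of 1 array). No spot was well above background for either population. The log2 ratio was -0.05 ± 0.11 on array 1 and 0.12 ± 0.14 on array 2 over the 10 spots, each mean being nearer to 0 than 1 SD of its spots. Spots of 1 array share their RNA and are not replicates of the populations.

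Il1rn, which encodes the receptor antagonist, gave different readings with its 2 probes. The probe at position 1546 had net signals of 62.3 and 435 in Lgr6-high cells, against 48.0 and 28.2 in Lgr5-high cells, where it was not well above background. Its log2 ratio was 1.01 and 1.12 (1.06 ± 0.07), or at least 2.09-fold higher in Lgr6-high cells, which places Il1rn just inside the size rule. This bound equals the measured ratio and holds for these settings only. The probe at position 203 had 21.4 and 47.4 in Lgr6-high cells and 56.0 and 19.2 in Lgr5-high cells, at background throughout, with a ratio of -0.04 ± 0.29. The call for Il1rn therefore rests on 1 of its 2 probes. It was lost when the normexp background model was fitted on all spots (mean log2 ratio 0.57) and when no background was subtracted (0.54).

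Tslp encodes thymic stromal lymphopoietin, whose receptor is formed by Crlf2 and Il7r. Its probe lies on the plus strand at chr18:32978885-32978944 of mm9, beginning at position 564 of the transcript. Net signals were 157 and 2319 in Lgr6-high cells, against 41.0 and 23.0 in Lgr5-high cells. The Lgr5-high signals lay at the medians of the negative controls, and Lgr6-high cells were higher in each dye. The log2 ratio was 2.56 and 3.04 (2.80 ± 0.34), a bound of at least 6.54-fold higher in Lgr6-high cells under the settings used here. With normexp fitted on all spots the log2 ratio was 1.63.

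Cxcl16 encodes a chemokine made as a membrane protein, the ligand of CXCR6. The probe at position 2344 had net signals of 500 and 3585 in Lgr6-high cells, against 272 and 93.9 in Lgr5-high cells. Both populations were above background on both arrays, and Lgr6-high cells were higher in each dye. The log2 ratio was 2.94 and 2.35 (2.65 ± 0.42), 6.27-fold. The probe at position 813 was dimmer, with 92.6 and 806 in Lgr6-high cells and 134 and 50.7 in Lgr5-high cells. It gave a smaller ratio, 1.04 and 1.23 (1.14 ± 0.13), or 2.20-fold, and the probes differed by 1.51 on the log2 scale. Both probes put Cxcl16 above the 2-fold mark, and their median gave 1.89.

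Ccl27a encodes a skin-homing chemokine that binds CCR10. It was among the brighter genes, at percentile 90.7 of mean intensity among the genes compared. Net signals were 928 and 9760 in Lgr6-high cells, against 780 and 223 in Lgr5-high cells. Lgr6-high cells were higher in each dye. The log2 ratio was 2.66 and 2.54 (2.60 ± 0.09), 6.06-fold. Ccl27a has near-identical copies in the mouse genome, such as Ccl27b, so its probe may also read these, and the value is less certain to be that of 1 gene.

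Ccl20, the ligand of CCR6, lay close to the limit of detection. Its probe (chr1:83115500-83115559, plus strand) had net signals of 46.3 and 132 in Lgr6-high cells and 74.3 and 45.4 in Lgr5-high cells. The log2 ratio was 0.44 and -0.22, of opposite sign on the 2 arrays (0.11 ± 0.47).

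Cxcl1, a neutrophil chemokine that binds CXCR2, was dimmer still. Its probe (chr5:91321845-91321904, plus strand) had 18.9 and 101 in Lgr6-high cells and 62.9 and 16.0 in Lgr5-high cells. The log2 ratio was -0.41 and 0.65 (0.12 ± 0.75), so neither size nor direction could be read.

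Cxcl14, a chemokine that resting epithelia express, was the brightest member in Lgr5-high cells. Its probe (chr13:56390078-56390137, minus strand) had net signals of 605 and 6488 in Lgr6-high cells, against 5085 and 1141 in Lgr5-high cells. In Cy3 Lgr6-high cells had the higher signal and in Cy5 Lgr5-high cells did. After normalisation the log2 ratio was -0.40 and -0.37 (-0.38 ± 0.02), 1.30-fold higher in Lgr5-high cells, outside the size rule. Cxcl14 was thus the 1 bright member that was not higher in Lgr6-high cells.

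**Figure D2:**
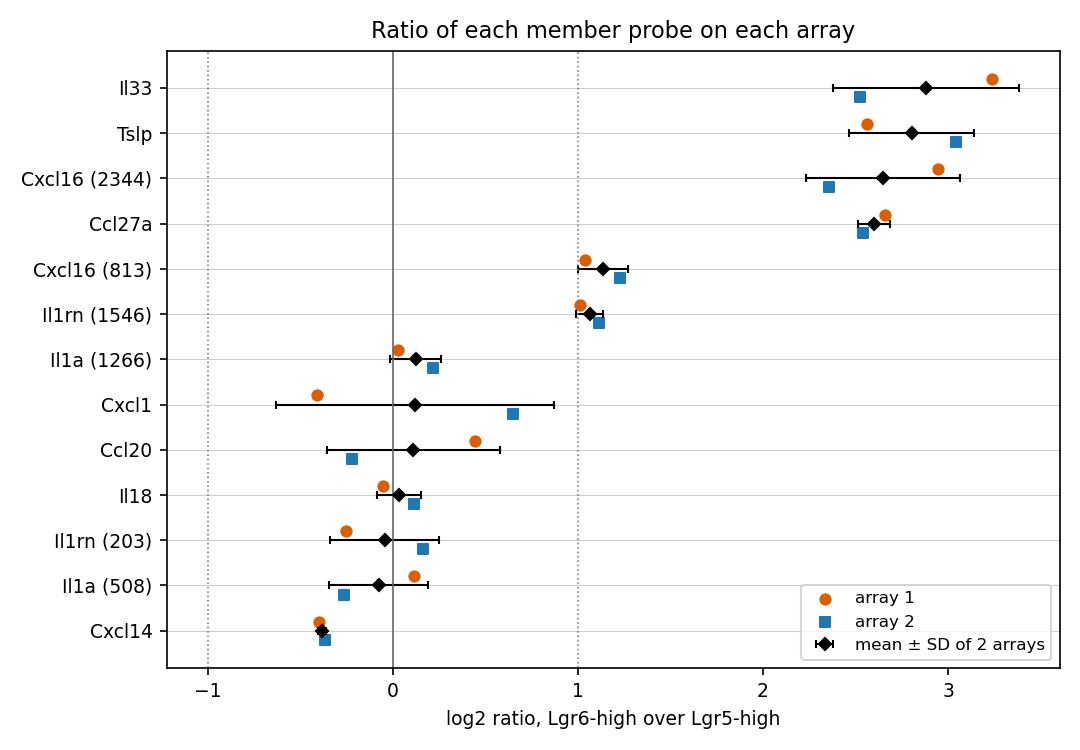
The log2 ratio of Lgr6-high over Lgr5-high cells for each member probe, on array 1 (circles), array 2 (squares) and as mean ± SD of 2 arrays (diamonds), with dotted lines at a 2-fold difference. Il33, Tslp, Cxcl16 (2344) and Ccl27a lie between 2.60 and 2.88, Cxcl16 (813) and Il1rn (1546) just above 1, and the remaining probes within 1 of 0.

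The promoters of 8 members, 13 entries in all, were read from RefSeq on build GRCm38.p6, from 250 bases before to 50 after the transcript start. They were searched on both strands for the AP-1 motif TGANTCA and for the NF-kappaB consensus, since both factors act on cytokine genes. Entries for Cxcl16 and Tslp were not used here. Of the 6 windows with a match, the 5 whose motif lies before the transcript start are shown, with the motif in capitals; the NF-kappaB match of Ccl27a lies after the start and is not shown.
Il1rn, AP-1, chr2:24336704-24336740, plus strand: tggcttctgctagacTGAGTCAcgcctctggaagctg
Ccl27a, AP-1, chr4:41770268-41770304, minus strand: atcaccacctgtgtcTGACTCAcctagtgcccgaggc
Il1a, AP-1, chr2:129309963-129309999, minus strand: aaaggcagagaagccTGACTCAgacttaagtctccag
Ccl20, NF-kappaB, chr1:83116671-83116710, plus strand: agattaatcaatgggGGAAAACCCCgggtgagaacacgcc
Cxcl1, NF-kappaB, chr5:90891159-90891199, plus strand: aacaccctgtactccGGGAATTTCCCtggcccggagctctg

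The AP-1 motif was found for 3 members, beginning 141 bases before the start in Il1rn, 77 before it in Ccl27a and 12 before it in Il1a. It lay in 3 of the 13 member entries and is held by 7.81% of all 32851 promoters of the same length. The NF-kappaB consensus was found for Ccl20 (80 bases before the start), Cxcl1 (71 before it, as overlapping matches on both strands) and Ccl27a (30 after it). This consensus lay in 3 of the 13 member entries and is held by 8.46% of all promoters. Each motif thus had matches both in a member called higher in Lgr6-high cells and in a member near background, and a match is a description of the sequence only.

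Other genes of the same pathways were read from lists. Over all genes compared, the rule called 7.22% higher in Lgr6-high cells and 4.79% higher in Lgr5-high cells. The lists were chosen with earlier results known, so nothing is read from a difference in shares. Of 32 receptors and signalling genes, all had a probe, 13 were compared, 4 were called higher in Lgr6-high cells and 0 higher in Lgr5-high cells, and the median log2 ratio was 0.42. Ifngr1, a chain of the interferon gamma receptor, had net signals of 276 and 3069 in Lgr6-high cells and 164 and 25.8 in Lgr5-high cells, with a log2 ratio of 2.92 ± 0.55. In Lgr5-high cells it was well above background on array 1 only, so it passed the filter through Lgr6-high cells alone. Il1r2, the decoy receptor of IL-1, had 2 probes, both above background somewhere. Only 1 of them was above background on both arrays of a population, and its values are given. It had 90.3 and 1195 in Lgr6-high cells and 45.4 and 25.8 in Lgr5-high cells, where it was at background. By this probe Il1r2 passed the filter through Lgr6-high cells alone and was at least 3.75-fold higher there (log2 ratio 1.91 ± 0.43). Il4ra, a chain shared by the IL-4 and IL-13 receptors, had a ratio of 1.60 ± 0.38, and Myd88, the adaptor of IL-1 family and Toll-like receptors, 1.16 ± 0.11. With normexp fitted on all spots Il1r2 (0.43 on array 2), Il4ra (mean 0.89) and Myd88 (mean 0.77) were no longer called; median centring also ended the calls of Il4ra and Myd88 (-0.08 and -0.40 on array 1).

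Crlf2, the TSLP receptor chain, was above background in both populations on both arrays and was not called, with net signals of 56.0 and 438 in Lgr6-high cells and 483 and 103 in Lgr5-high cells (log2 ratio -0.45 ± 0.35). The scavenging chemokine receptor Ackr3, the interferon gamma receptor chain Ifngr2 and the TNF receptor Tnfrsf1a were not called either, at 0.16 ± 0.10, -0.04 ± 0.18 and 0.20 ± 0.25. In all, 14 of the 32 genes were at background in both populations with every probe. Among them were the receptors of 5 members: Il1rl1 for IL-33, Cxcr6 for CXCL16, Ccr10 for CCL27, Ccr6 for CCL20 and Cxcr2 for CXCL1. Il7r, the partner of Crlf2, and the IL-18 receptor chains Il18r1 and Il18rap were at background too.

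Of 13 genes for processing enzymes, inflammasome parts and decoys, 12 had a probe, 3 were compared and none met the size rule, with a median log2 ratio of -0.34. Casp1, the caspase that matures IL-18, had net signals of 27.2 and 62.9 in Lgr6-high cells, at background, and 144 and 42.6 in Lgr5-high cells, above it on both arrays. Casp1 thus had only a bound: its level in Lgr5-high cells was higher by at least 1.36-fold under the settings used here. With normexp fitted on all spots its log2 ratio was -0.25. By the scanner software's ratios (-2.64 and -2.43) it was called higher in Lgr5-high cells. Pycard, the inflammasome adaptor, was bright in both populations, at 386 and 3741 in Lgr6-high cells and 3188 and 660 in Lgr5-high cells (-0.34 ± 0.14). Furin, a proprotein convertase, gave -0.10 ± 0.99, its arrays being of opposite sign.

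Of 48 other cytokines, chemokines and alarmins, 47 had a probe, 8 were compared, 1 was called higher in Lgr6-high cells and 0 higher in Lgr5-high cells, with a median log2 ratio of 0.28. Over all genes compared, the shares called were 7.22% and 4.79%. The called gene was Il34, a ligand of the CSF1 receptor on which Langerhans cells depend, with net signals of 163 and 1727 in Lgr6-high cells and 96.1 and 35.0 in Lgr5-high cells. Its log2 ratio was 2.27 ± 0.19. In Lgr5-high cells it was above background on array 1 only, so it passed the filter through Lgr6-high cells alone. Not called were the membrane-bound chemokine Cx3cl1 (0.81 ± 0.01), Cxcl10 (0.56 ± 0.12), the nuclear alarmin Hmgb1 (-0.96 ± 0.30) and Mif (-0.71 ± 0.24). Cx3cl1 was called higher in Lgr6-high cells with an offset of 10 (1.07) and by the scanner software's ratios (1.18), and Hmgb1 higher in Lgr5-high cells without background subtraction (-1.01) and on array 1 alone (-1.17). At background with every probe in both populations were 28 of the 47, including Il1b, Cxcl2, Il23a, Ccl17, Ccl22 and S100a8.

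**Figure D3:**
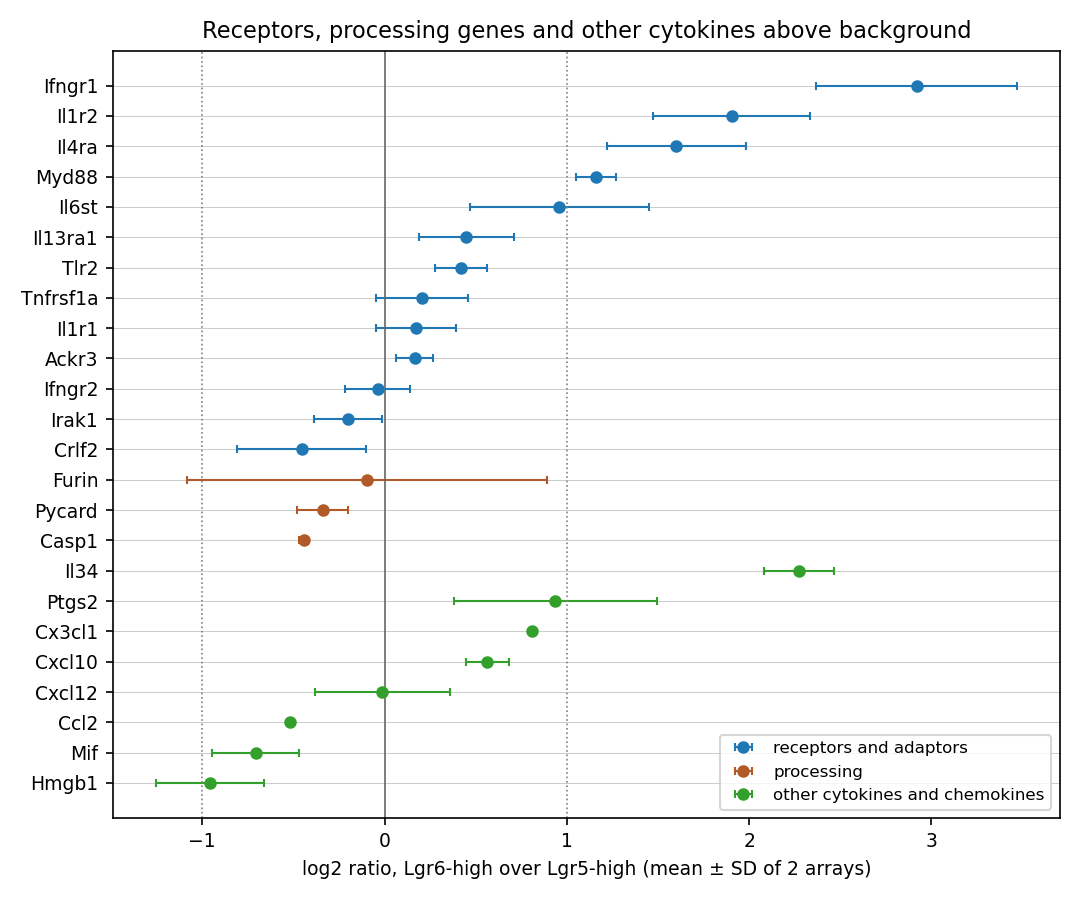
The log2 ratio of Lgr6-high over Lgr5-high cells (mean ± SD of 2 arrays) for the receptors and adaptors, processing genes and other cytokines that were compared, with dotted lines at a 2-fold difference. Ifngr1 (2.92), Il34 (2.27), Il1r2 (1.91), Il4ra (1.60) and Myd88 (1.16) lie past the line, and no gene lies past it on the Lgr5-high side; Il1r2, Ptgs2 and Casp1 were at background in 1 population, so their ratios are bounds.

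The label of the sorted cells was set against marker lists. Over all genes compared, the rule called 7.22% higher in Lgr6-high cells and 4.79% higher in Lgr5-high cells. All 7 keratinocyte markers were above background in both populations on both arrays; Cdh1, which encodes E-cadherin (log2 ratio 1.83 ± 0.46), and Perp, a desmosome protein gene (1.51 and 0.70 on the 2 arrays), were called higher in Lgr6-high cells. Perp was not called on array 2 alone, with normexp fitted on all spots (mean 0.30) or without background subtraction (0.68), and both lost their call with median centring. Krt5, Krt14 and Krt15, the brightest of them, had log2 ratios of 1.85 (Krt5), 2.27 (Krt14) and 1.98 (Krt15) on array 1 and of -0.27, -0.21 and -0.23 on array 2, so none was called. All 3 were called higher in Lgr6-high cells with an offset of 10 (means 1.18, 1.40 and 1.26), by the scanner software's ratios (1.12, 1.35 and 1.27) and on array 1 alone. With normexp fitted on all spots their means were negative, at -0.90, -0.49 and -0.62. Median centring made array 1 negative (-1.32, -0.75 and -0.97) and array 2 positive, so the direction of these keratins depended on the processing. Of 26 leukocyte and Langerhans cell markers with a probe, 20 were at background everywhere, Ptprc, Cd207 and Cd3g among them, and 2 were compared, Thy1 (-0.17 ± 0.34) and C1qb (-0.06 ± 0.21), neither called. The summed leukocyte level, which is mostly background, was 2170 and 1991 in Lgr6-high cells and 2075 and 2117 in Lgr5-high cells on the 2 arrays.

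Markers of other cell types did move with the contrast. Of 6 fibroblast markers 4 were called higher in Lgr5-high cells, namely Col1a1 (log2 ratio -2.61 ± 0.34), Col1a2 (-2.63 ± 0.23), Col3a1 (at least 5.28-fold) and Dcn (at least 4.13-fold). Over all genes compared, the share called in this direction was 4.79%. The fibroblast and endothelial markers compared passed the filter through Lgr5-high cells alone. The Col1a1 value is that of its brightest probe. The median of its 2 probes above background in Lgr5-high cells was smaller in size, at -1.60, and still called. Col3a1, Dcn and Lum were at background in Lgr6-high cells, and Pdgfra in both populations. Lum, whose level in Lgr5-high cells was higher by at least 1.57-fold, was called only with an offset of 10 (-1.58) and by the scanner software's ratios (-3.20). With normexp fitted on all spots Col3a1 (-1.31) and Dcn (-1.05) lost their call, array 2 falling short. The summed fibroblast level was 730 and 362 in Lgr6-high cells and 2988 and 1772 in Lgr5-high cells. These sums include genes at background, and in Lgr6-high cells no fibroblast marker was above it on both arrays. Of 5 endothelial markers, Ramp2 (-2.41 ± 0.33) and Egfl7 (at least 2.19-fold) were called higher in Lgr5-high cells, and Cdh5, Kdr and Pecam1 were at background. Neither was called with normexp fitted on all spots (-1.30 for Ramp2, -0.52 for Egfl7), and Egfl7 was not called without background subtraction (-0.64) or on array 1 alone (-0.93). The summed endothelial level was 435 and 313 in Lgr6-high cells and 941 and 725 in Lgr5-high cells. Genes at background are included here too, and in Lgr6-high cells no endothelial marker was above it on both arrays. The part of fibroblasts and endothelial cells in the member ratios was not tested. In sorted bulk RNA, fewer cells that express a gene and less RNA of it per cell cannot be told apart.

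**Figure D4:**
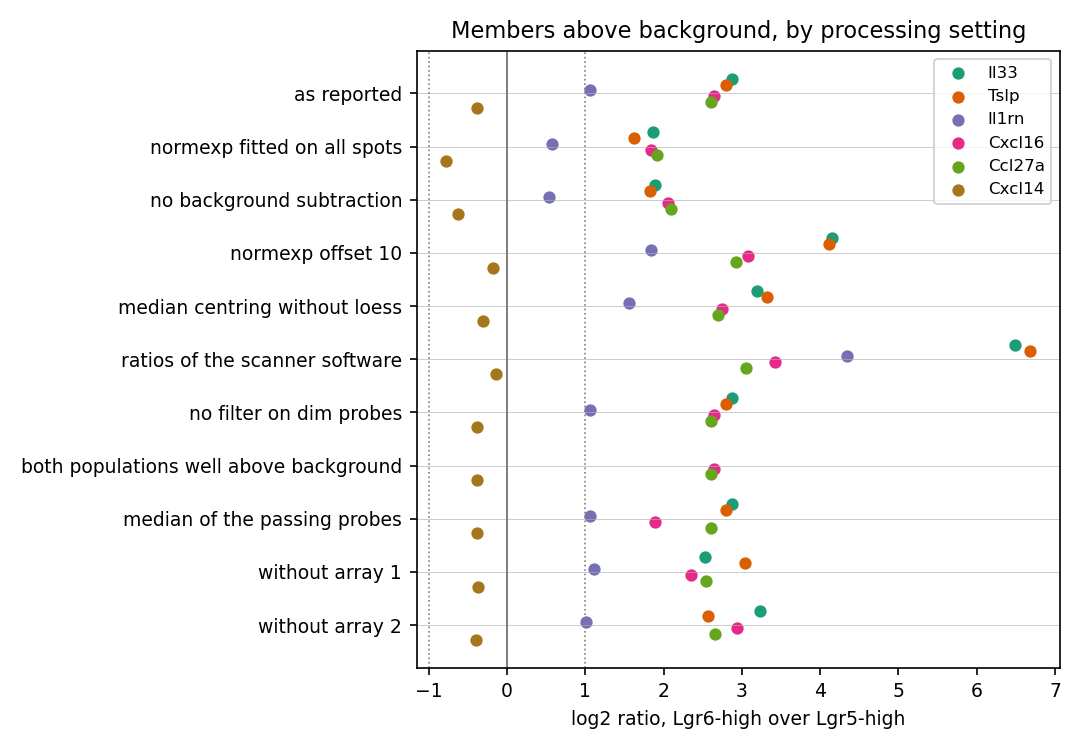
The log2 ratio of Lgr6-high over Lgr5-high cells for the 6 members compared (colours), under the settings used for the values above (top row) and 10 others, with dotted lines at a 2-fold difference; Il33, Tslp and Il1rn have no value where both populations had to be above background. Il33 ranges from 1.87 to 6.49 and Tslp from 1.63 to 6.68, while Cxcl14 keeps below 0, between -0.78 and -0.14.

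The size of the ratio for members at background in Lgr5-high cells followed the treatment of low signals. The scanner software's own ratios, which replace low signals by small surrogate values, gave 6.49 for Il33, 6.68 for Tslp and 4.34 for Il1rn, against 2.88, 2.80 and 1.06 with normexp and an offset of 50. For the members above background in both populations the difference was smaller, at 3.42 against 2.65 for Cxcl16 and 3.06 against 2.60 for Ccl27a. With the intensity-dependent loess step replaced by median centring, Ccl27a read 0.47 on array 1 and 4.90 on array 2 and was no longer called, and Cxcl14 read -2.78 and 2.16. Their means over the exchanged dyes, 2.69 and -0.31, stayed close to the values above.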

How the data were processed

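The arrays were a dye-swapped pair with 2 colours from Agilent. The authors deposited scanner tables with the intensity of each spot and its local background per channel on a linear scale, extracted with Agilent Feature Extraction 10.5.1.1 per the file headers, whereas the submitters' processing notes name 9.5.3. The same deposited tables, and the authors' series value table, give a log10 ratio of Cy5 over Cy3; the value table equals it, with the sign turned on array 2 and a median of 0 in each column, so its scale and direction are known.

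Background was corrected with normexp (offset 50, limma 3.58.1 in R 4.3.3), fitted on spots without an outlier mark, a departure from the default. Ratios were normalised by loess within arrays, with control spots at weight 0, and expressed as log2 (Lgr6-high over Lgr5-high) from the dyes in the labels. Control and outlier-marked spots (139 and 204) were left out, none was saturated, and spots of a probe were averaged. Levels behind "at least" folds follow loess and Aquantile scaling: the bright population's mean against, per array, the higher of the lowest signal among probes well above background and the dim probe's own. For Il1rn, Il1r2, Ptgs2 and Casp1 the dim probe's own level was the higher, so their bounds equal the measured ratios. The brightest passing probe stood for a gene. Probes were named through a RefSeq table of GRCm38.p6 by accession (25089 probes), symbol (6339) or synonym (1639), or kept the file's name (1699); 6408 had none. Zmynd15, listed there as a Cxcl16 synonym, is another gene's symbol and was left out. Promoter sequences are RefSeq's.

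The members and lists were chosen with earlier results of these data known. Named were all members, every called gene of the lists, and up to 4 uncalled genes of highest intensity per list; genes said to be at background are exceptions, named after their values were seen. Alternatives (11) covered background, normalisation, filters, probe choice and each array alone.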

Additional observations from a re-analysis of the deposited data

How the results depend on the processing

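Calls toward Lgr6-high cells and toward Lgr5-high cells numbered 447 and 297 (60.1% toward Lgr6-high). They numbered 124 and 151 with normexp fitted on all spots (45.1%), 209 and 209 without background subtraction (50%), 726 and 481 with an offset of 10, 134 and 57 with median centring (70.2%), and 958 and 958 with the scanner software's ratios and the value table (50%). With 1 array left out they ranged from 439 to 599 and from 309 to 492. Members called higher in Lgr6-high cells were 5, and 4 on all spots, without subtraction and with median centring; they were 2 where both populations had to be above background, because Il33, Tslp and Il1rn then have no value. Leaving out either array kept them at 5.

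Il33, Tslp, Cxcl16, Ifngr1 and Il34 kept their call in every alternative that gave them a value. With normexp fitted on all spots, however, their array 2 ratios fell toward the limit of 0.5. They read 0.502 (Il33), 0.55 (Il34), 0.69 (Tslp), 0.75 (Cxcl16) and 0.81 (Ifngr1), so Il33 kept its call only narrowly. Il1rn lost its call on all spots (0.57) and without subtraction (0.54), and Ccl27a with median centring. Il1r2 lost it on all spots (1.01, with 0.43 on array 2), Il4ra on all spots (0.89) and with median centring, and Myd88 in both and without subtraction (0.81). No mean ratio of a called gene named here changed sign, but values of single arrays did. With median centring array 1 read -0.08 for Il4ra, -0.40 for Myd88, -0.44 for Cdh1 and -1.08 for Perp. Perp also read -0.89 on array 2 with normexp fitted on all spots. The cause was not tested. No separate paired analysis was run, because both arrays hold both populations and the ratio within an array already pairs them. Precision is limited by 2 arrays of 1 pair and by low signal over background, most of all in Cy5.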
